A study of Mus musculus with 4 samples.

Results

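The 5 mouse genes Serpina1a to Serpina1e encode the paralogues of alpha-1-antitrypsin, and they were followed across the cell types of 4 single-cell libraries of marrow stroma. All 5 are present among the 27998 genes of the count matrices. The genes were chosen because earlier values of the same libraries placed their transcripts in cells with cartilage genes, so their levels by cell type are a description and carry no test. The study used a pair of mouse models of myelodysplastic syndrome (MDS), a failure of blood formation that can turn into acute myeloid leukaemia (AML). The libraries were NHD13Tg, from mice with the Nup98-HoxD13 fusion gene as a transgene, and its wild-type partner WT_A1, and Abcg2-MDS/AML, from the model named for Abcg2, and its wild-type partner Control. All mice were C57BL/6, and all cells came from crushed, collagenase-treated femora and tibiae. Sorting kept cells that lacked CD45, TER119 and CD31 and carried CD140a and CD51. The age and sex of the mice, the number of animals behind each library, the promoter of the transgene and the nature of the Abcg2 change are not given in the labels.

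Alpha-1-antitrypsin is a secreted serpin, an inhibitor that traps serine proteases by offering them an exposed reactive centre loop as bait. The human genome has a single functional gene, made chiefly by hepatocytes, and the mouse has a cluster of near copies in which the loop varies most. Hyaline cartilage is the glassy tissue of joints and growth plates, whose chondrocytes deposit type II and type IX collagen and aggrecan. Lubricin (Prg4), clusterin (Clu) and Cilp mark cells of the joint surface and neighbouring connective tissue.

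The genes lie on the minus strand of chromosome 12 within 231 kb, at chr12:103728156-103958975 of GRCm38 in the GENCODE annotation. In the order along the chromosome they are Serpina1b (ENSMUSG00000071178), Serpina1d (ENSMUSG00000071177), Serpina1a (ENSMUSG00000066366), Serpina1c (ENSMUSG00000079015) and Serpina1e (ENSMUSG00000072849), by their 3′ ends, and the annotated span of Serpina1b runs across Serpina1d, with 0 shared exon bases. The build behind the counts is not given in the sources used here, but each ID is the same in the count matrices. Over aligned coding bases the 10 pairs of copies were 96.3% to 98.5% identical. The last 500 bases of the transcripts, where a 3′ library reads, were 94.2% to 96.4% identical. Pairs differed at 6.67% to 16% of the bases of the reactive centre loop, against 1.53% to 3.70% of coding bases as a whole. The 75 coding bases of the loop from the conserved hinge onward are shown for each copy, 5′ to 3′ on the minus strand of GRCm38 from the GENCODE transcripts, with capitals at the 18 positions that are not the same in all 5 copies.
Serpina1a at chr12:103853756-103853830: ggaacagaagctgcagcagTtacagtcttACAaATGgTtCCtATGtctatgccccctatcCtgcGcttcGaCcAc
Serpina1b at chr12:103728323-103728397: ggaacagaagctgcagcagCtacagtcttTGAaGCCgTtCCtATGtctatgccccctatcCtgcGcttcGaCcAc
Serpina1c at chr12:103895093-103895167: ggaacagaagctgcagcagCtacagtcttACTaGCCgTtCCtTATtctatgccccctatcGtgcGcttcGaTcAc
Serpina1d at chr12:103763761-103763835: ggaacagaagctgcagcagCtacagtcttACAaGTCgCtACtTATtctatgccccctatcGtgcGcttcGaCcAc
Serpina1e at chr12:103947099-103947173: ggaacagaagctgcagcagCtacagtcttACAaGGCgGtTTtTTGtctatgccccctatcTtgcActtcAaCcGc
Pairs of copies differed at 5 to 12 of these 75 bases. Serpina1e differed from each other copy at 10 to 12 of them, and Serpina1c and Serpina1d differed from each other at 5.

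Sequence identity bears on how well reads can be assigned. Among windows of 90 bases that lie within the last 500 bases of each transcript, 100% were found in no other transcript for Serpina1e, 96.4% for Serpina1b, 92.5% for Serpina1d, 84.7% for Serpina1c and 78.1% for Serpina1a. With windows of 50 bases the shares were 83.6%, 70.5%, 58.5%, 61.4% and 44.6% in the same order. The matches lay in the other copies and in the pseudogene Gm8893 of the same cluster. How reads that match several copies were counted is not given in the sources used here, so the sum over the 5 copies is the firmer measure, and the split between Serpina1a and Serpina1c is the least certain. The split for Serpina1e rests on the most distinct sequence.

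The promoters are near copies too. In the RefSeq windows (GRCm38.p6, 250 bases before to 50 after the annotated start), a stretch of 121 bases upstream of the annotated start could be aligned without gaps in all 5 genes, and pairs differed at 2 to 7 of these bases. The windows of Serpina1a and Serpina1e are shown because these copies differed in where their transcripts were found, with capitals at the 10 positions that vary among the 5 genes.
Serpina1a at chr12:103863625-103863745, minus strand: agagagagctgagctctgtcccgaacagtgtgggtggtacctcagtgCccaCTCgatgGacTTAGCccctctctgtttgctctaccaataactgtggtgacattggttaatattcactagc
Serpina1e at chr12:103956960-103957080, minus strand: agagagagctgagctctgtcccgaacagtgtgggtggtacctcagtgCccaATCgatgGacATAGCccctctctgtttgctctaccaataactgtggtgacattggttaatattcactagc
Serpina1a and Serpina1e thus share most of this stretch letter for letter. Its distance to the annotated RefSeq start differs, as it begins at position -126 in Serpina1a and at -183 in Serpina1e. The GENCODE span of Serpina1e runs to 103958975, so the stretch of that gene lies inside its GENCODE span. The stretch of Serpina1a lies upstream of its GENCODE span, which ends at 103863562.

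The libraries held between 36133716 and 46033790 UMIs (unique molecular identifiers, each counting 1 captured RNA molecule). Barcodes with at least 2000 UMIs, at least 500 genes and no more than 10% mitochondrial UMIs were taken as cells, 5766 in NHD13Tg, 4973 in WT_A1, 5586 in Abcg2-MDS/AML and 5158 in Control. Pairs of libraries shared between 6 and 14 cell barcodes. Cell types were set by sums of marker UMIs per 10000 UMIs of the cell, written u here. Hyaline chondrocytes had at least 15 u of Col9a1, Col9a2 and Col9a3 together, the chains of type IX collagen. Cells that met several rules count in each. Levels are CPM, UMIs per 1000000 UMIs summed over the cells of a type. Intervals in parentheses are exact 95% intervals and cover counting error only. With 1 library per group no difference has a replicate check, and fewer transcripts per cell cannot be told apart from fewer expressing cells in a summed level.

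Cartilage cells were very unevenly spread over the libraries. Hyaline chondrocytes numbered 6 in NHD13Tg and 4 in WT_A1, and 832 in Abcg2-MDS/AML and 1048 in Control. In Abcg2-MDS/AML and Control all 10 chondrocyte markers stood at least 2-fold above the other cells of the library, 3 of them being the rule itself, while in NHD13Tg 9 of 10 did and in WT_A1 8 of 10. The 6 MSC (mesenchymal stromal cell) markers summed to 99.6 CPM in Abcg2-MDS/AML and 135 CPM in Control, the 4 fibroblast markers to 7.89 and 23.5 CPM, and the 6 blood markers to 0.108 and 20.9 CPM. The 4 hepatocyte markers Alb, Apoa1, Ahsg and Ttr summed to 0.973 and 2.37 CPM, with Ttr listed at 0 in both libraries. The 6 osteoblast markers, at 671 and 5340 CPM, and the 3 tendon markers, at 85.1 and 520 CPM, were lower in the diseased library. The 3 mural markers, at 74.3 and 5.69 CPM, were higher there. The 5 markers listed for Msmp-high cells, Msmp, Cytl1, Prg4, Cilp and Clu, summed to 28723 and 27232 CPM, against 21137 and 41015 CPM for the 10 hyaline markers, with Msmp itself at 7.57 and 730 CPM. The Msmp-high sum was above the hyaline sum in Abcg2-MDS/AML, where Cytl1 alone stood at 25589 CPM, and below it in Control. In the 4 cells of WT_A1 the Msmp-high sum was 64526 CPM, also above the 10478 CPM of the hyaline markers. The hyaline chondrocytes of Abcg2-MDS/AML and WT_A1 thus rest on the type IX collagen rule rather than on their leading genes. In the 6 cells of NHD13Tg the sums were 7554 and 19843 CPM. All libraries are labelled as marrow MSCs, and the MSC rule took 1902 cells in NHD13Tg, 694 in WT_A1, 189 in Abcg2-MDS/AML and 431 in Control.

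Serpina1 transcripts reached their highest level in hyaline chondrocytes in Abcg2-MDS/AML and Control. Their summed level was 10858.5 CPM (10100 to 11659) in NHD13Tg and 5629 CPM (4822 to 6534) in WT_A1, from 6 and 4 cells, so these values are given without a comparison. In WT_A1 1 of the 4 cells held 91.3% of the 173 UMIs. The level was 7667 CPM (7611 to 7724) in Abcg2-MDS/AML over 832 cells and 2325 CPM (2293 to 2358) in Control over 1048 cells. Cells with at least 15 u of type IX collagen made up 14.9% of the cells of Abcg2-MDS/AML and held 72.3% of its Serpina1 UMIs. In Control they made up 20.3% of cells and held 85.2%.

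**Figure D1:**
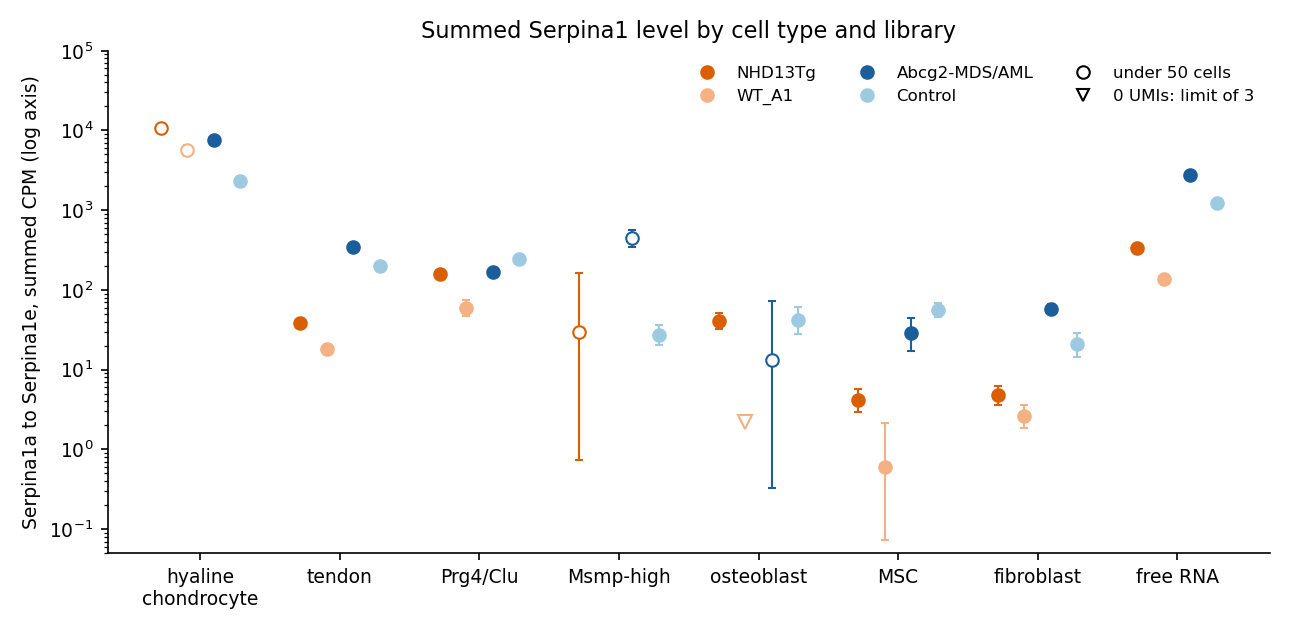
Summed level of the 5 Serpina1 copies (CPM, log axis) in each cell type and in free RNA, by library. Points are summed levels and bars exact 95% counting intervals, open circles mark types with under 50 cells, and the triangle marks the limit that 0 UMIs allow. Hyaline chondrocytes lie above the other cell types drawn in all 4 libraries, but with under 50 such cells in NHD13Tg and WT_A1.

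The other stromal types stood far below. Tendon cells (Tnmd, Thbs4 and Myoc) had 38.2 and 18.1 CPM in NHD13Tg and WT_A1, where 1 cell held 52.3% and 81.2% of the UMIs, and 347 and 199.5 CPM in Abcg2-MDS/AML and Control. Most of those UMIs came from tendon cells that also carried type IX collagen. In tendon cells under 2 u of it the levels were 15.4, 3.41, 39.5 and 45.6 CPM in NHD13Tg, WT_A1, Abcg2-MDS/AML and Control. Mural cells (Rgs5, Myh11 and Acta2) of Abcg2-MDS/AML stood at 2071 CPM over 91 cells, but at 47.3 CPM over the 69 of them under 2 u of type IX collagen.

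MSCs, the marrow cells with Adipoq, Lepr and Esm1 that support blood formation, had 4.15 CPM (2.95 to 5.68) in NHD13Tg and 0.601 CPM in WT_A1, where 2 UMIs are below the limit of 3 UMIs used as a floor. MSCs of Abcg2-MDS/AML had 28.8 CPM (17.3 to 44.9) and those of Control 56.7 CPM (46.0 to 69.1), and 1 Control cell held 64.3% of the 98 UMIs there. Fibroblasts (Dpt, Clec3b and Col14a1) had 4.80 and 2.62 CPM in NHD13Tg and WT_A1, and 57.9 and 20.9 CPM in Abcg2-MDS/AML and Control, with 52.6% of the UMIs of Abcg2-MDS/AML in 1 cell. Many fibroblasts also met the tendon rule, 1082 of 1796 in NHD13Tg and 1289 of 2102 in WT_A1. In Abcg2-MDS/AML 308 cells and in Control 219 cells met both rules. The orders of MSCs and fibroblasts were opposite in Abcg2-MDS/AML and Control, so no order between them is given.

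Osteoblasts (Bglap and Bglap2) had 41.3 CPM in NHD13Tg, where 1 of 145 cells held 95.1% of the UMIs, and 0 UMIs over 109 cells in WT_A1, which allows up to 2.22 CPM. The 69 osteoblasts of Control had 42.2 CPM, 82.1% of it from 1 cell, and Abcg2-MDS/AML had only 8 osteoblasts. Msmp-high cells, set by at least 50 u of the secreted protein gene Msmp, numbered 8 in NHD13Tg, 0 in WT_A1, 27 in Abcg2-MDS/AML and 287 in Control. The 287 cells of Control had 27.6 CPM (20.3 to 36.6) against 2325 CPM in the hyaline chondrocytes of the same library. In the 27 cells of Abcg2-MDS/AML 1 cell held 98.5% of the UMIs behind 445 CPM.

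RNA outside cells carries the same transcripts. Barcodes with 1 to 100 UMIs, taken as free RNA, had 340, 137, 2731 and 1223 CPM of Serpina1 in NHD13Tg, WT_A1, Abcg2-MDS/AML and Control. The level in MSCs was 1.22%, 0.440%, 1.05% and 4.64% of that of free RNA in the same libraries, and the level in fibroblasts was 1.41%, 1.91%, 2.12% and 1.71%. The part of free RNA in them was not tested. The levels of hyaline chondrocytes in Abcg2-MDS/AML and Control were 281% and 190% of those of free RNA.

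The amount of Serpina1 also followed type IX collagen below the threshold of 15 u. In Abcg2-MDS/AML the summed level was 73.3 CPM under 2 u, 1549 CPM from 2 to 5 u, 6714 CPM from 5 to 10 u, 7466 CPM from 10 to 15 u and 9609 CPM from 15 to 30 u. It was lower again at 30 to 60 u, with 7997 CPM, and at 60 u or more, with 4482 CPM. In Control the same bands held 43.0, 137, 261, 973, 1661, 3150 and 2224 CPM, so the highest level lay at 30 to 60 u. The cells just outside and just inside the threshold thus had 7466 and 9609 CPM in Abcg2-MDS/AML, and 973 and 1661 CPM in Control. The values from Abcg2-MDS/AML lay above those from Control in each of the 7 bands, by 1.71-fold under 2 u, 11.3-fold, 25.8-fold and 7.67-fold in the bands from 2 to 15 u, 5.79-fold at 15 to 30 u, 2.54-fold at 30 to 60 u and 2.02-fold at 60 u or more. The bands were chosen after the values had been seen. Cells of the same band differed in other genes. At 5 to 10 u Prg4 stood at 25248 CPM in Abcg2-MDS/AML and 85443 CPM in Control, and Ucma at 1087 and 574 CPM. At 10 to 15 u Prg4 stood at 7663.5 and 67154 CPM. Under 2 u Prg4 ran the other way, at 22618 and 11338.5 CPM. The part of these differences in the band ratios was not tested.

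**Figure D2:**
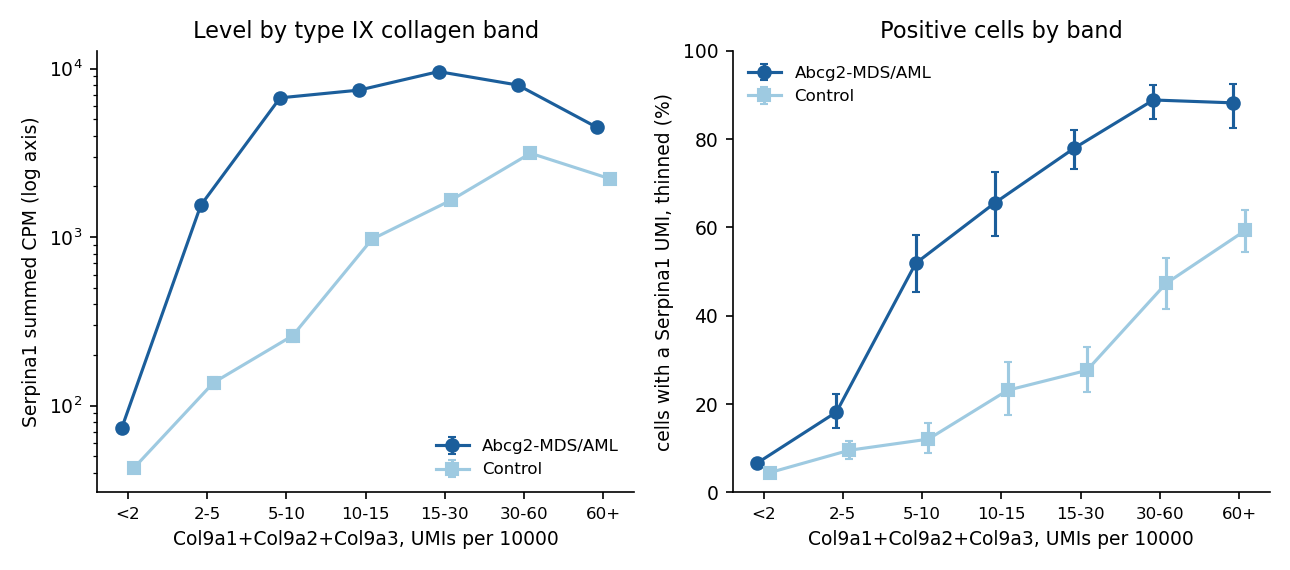
Serpina1 by type IX collagen band (UMIs of Col9a1, Col9a2 and Col9a3 per 10000) in Abcg2-MDS/AML and Control, as summed CPM on a log axis (left) and as the percent of cells with a Serpina1 UMI after thinning each cell to 2000 UMIs (right). Bars are exact 95% counting intervals. The Abcg2-MDS/AML points lie above those of Control in all 7 bands.

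The comparison that the design allows for cartilage is Abcg2-MDS/AML with Control, which asks how the stroma differs between diseased and wild-type mice. In hyaline chondrocytes the summed Serpina1 level was 3.30-fold (3.25 to 3.35) higher in Abcg2-MDS/AML. It was 3.35-fold higher without the cell with most Serpina1 UMIs in each library, and 3.51-fold higher without the top 10 cells. A UMI of any copy was found in 89.5% of the cells of Abcg2-MDS/AML and 57.3% of those of Control. Depth differed, with a median of 10861 and 7209.5 UMIs per cell, and after each cell was thinned to 2000 UMIs the shares were 83.9% and 46.4%. In fibroblasts, a type set by none of the cartilage genes, the thinned shares were 5.69% and 4.09%, with median depths of 3903 and 3773 UMIs in Abcg2-MDS/AML and Control.

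Per cell, the median was 52.7 u in Abcg2-MDS/AML and 1.96 u in Control. Cells with at least 10 u formed 78.2% (75.3 to 81.0) of hyaline chondrocytes in Abcg2-MDS/AML and 35.2% (32.3 to 38.2) in Control. Within those cells, which the level itself selects, the median was 74.0 u and 40.2 u. At least 100 u was reached by 237 cells of Abcg2-MDS/AML and 75 cells of Control, 28.5% and 7.16% of them. The highest cell had 693 u in Abcg2-MDS/AML and 478 u in Control.

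**Figure D3:**
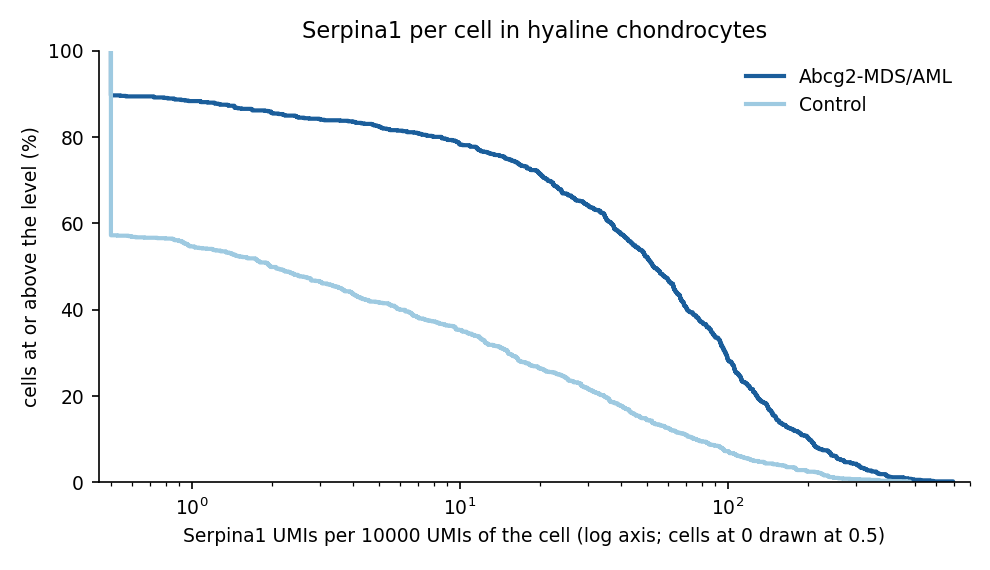
Percent of hyaline chondrocytes at or above each Serpina1 level (UMIs of the 5 copies per 10000 UMIs of the cell, log axis, cells at 0 drawn at 0.5) in Abcg2-MDS/AML (832 cells) and Control (1048 cells). The curve of Abcg2-MDS/AML runs above that of Control, with 78.2% and 35.2% of cells at 10 u or more.

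Each copy was higher in the hyaline chondrocytes of Abcg2-MDS/AML when all bands were summed. Serpina1a stood at 3402 and 1062 CPM in Abcg2-MDS/AML and Control, 3.20-fold (3.13 to 3.28) apart. Serpina1b stood at 2009 and 534 CPM (3.76-fold, 3.64 to 3.89) and Serpina1d at 1930 and 650 CPM (2.97-fold, 2.88 to 3.06). Serpina1c, the scarcest of the 4 copies typical of these cells, stood at 288 and 57.7 CPM (4.98-fold, 4.52 to 5.50). Serpina1e stood at 38.3 and 21.5 CPM (1.78-fold, 1.49 to 2.15), with a ratio of 0.679, the other way, in the band from 30 to 60 u. By a rule of size that is not a test (at least 20 CPM in 1 library, at least 2-fold apart, interval leaving out 1), 4 of 5 copies were higher, against 3.6% of the 5021 genes considered, and 15% of genes were lower. The median log2 ratio over these genes was -0.30, so most of these genes were lower in Abcg2-MDS/AML. Because the copies were chosen from these libraries, their count is a description. With cell sums scaled by the median ratio of the 3858 genes at 20 CPM or more in both libraries, a log2 shift of -0.22, the summed level was 3.84-fold higher and Serpina1e 2.08-fold higher. All 5 copies then passed the rule as higher, against 5.38% of genes, and 9.78% of genes were lower. With each cell thinned to 2000 UMIs instead, the Serpina1e ratio was 1.40.

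Genes of chondrocyte state differed between the same cells. Cytl1, a secreted cytokine-like protein of chondrocytes, stood at 25589 CPM in Abcg2-MDS/AML and 9599 CPM in Control, and Chad, a leucine-rich matrix protein that binds collagen, at 11063 and 5135 CPM. Ucma, a small matrix protein of resting cartilage, stood at 2521 and 1629 CPM. Col2a1, the type II collagen chain, stood at 8923 and 23678 CPM, Prg4 at 2482 and 14644 CPM, and Comp, an oligomeric matrix protein, at 1418 and 5047 CPM. Msmp stood at 7.57 and 730 CPM, Col10a1, the collagen of hypertrophic chondrocytes, at 82.4 and 405 CPM, and the proliferation gene Mki67 at 1.08 and 34.9 CPM. Sox9, the master transcription factor of chondrocytes, stood at 1824 and 1713 CPM and Acan at 1854 and 2138 CPM. The type IX collagen genes that set the hyaline rule were themselves lower in Abcg2-MDS/AML. Col9a1 stood at 1381 and 1981 CPM, Col9a2 at 2147 and 2421 CPM, and Col9a3 at 1324 and 3447 CPM. Matn3, a matrilin, stood at 652 and 1330 CPM. Cells taken by the same rule thus differed between the libraries in the level of its own genes. Of the hyaline chondrocytes, 26 in Abcg2-MDS/AML and 191 in Control also met the tendon rule. The part of these states and of the rule genes in the Serpina1 ratio was not tested. In cells under 10 u of Prg4 it was 2.74-fold, a setting chosen after the values had been seen.

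Within Control the copies were unevenly spread over these states. After thinning, 61.6% (57.5 to 65.5) of the 591 hyaline chondrocytes with a UMI of Matn3, a cartilage matrilin, had a Serpina1 UMI, against 26.7% (22.7 to 31.0) of the 457 without. The shares were 51.4% with and 33.2% without Ucma, 47.4% with and 28.8% without Chad, and 36.7% with and 55.9% without Prg4. With Col10a1 the share was 33.3% over 57 cells, against 47.1% without. In Abcg2-MDS/AML 88.1% with and 78.0% without Matn3 were positive, 86.2% with and 60.3% without Ucma, and 71.3% with and 87.0% without Prg4. There 69.7% with and 86.6% without Cilp were positive, and 82.5% with and 88.8% without Comp. The direction for Matn3, Ucma and Prg4 was the same in both libraries, and each gap is between cells of 1 library.

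The mix of copies in hyaline chondrocytes was close to the same in both libraries. Serpina1a gave 44.4% of the Serpina1 UMIs in Abcg2-MDS/AML and 45.7% in Control, Serpina1b 26.2% and 23.0%, Serpina1d 25.2% and 28.0%, Serpina1c 3.75% and 2.48%, and Serpina1e 0.499% and 0.923%. The copies were found together in the same cells. Of hyaline chondrocytes with at least 5 Serpina1 UMIs, 90.9% of 683 in Abcg2-MDS/AML and 76.7% of 421 in Control held 3 or more copies. Serpina1a was the most abundant copy in 56.4% and 55.8% of them, Serpina1d in 24.7% and 26.6%, and Serpina1b in 18.2% and 16.2%. Serpina1e led in 2 and 6 cells. The 6 hyaline chondrocytes of NHD13Tg had 54.7% Serpina1a and 0.659% Serpina1e, and the 4 of WT_A1 had 37.0% Serpina1a and 0 of 173 UMIs from Serpina1e.

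Serpina1e had another distribution. Cells under 2 u of type IX collagen held 232 of 310 Serpina1e UMIs in NHD13Tg (74.8%), all 123 in WT_A1, 138 of 939 in Abcg2-MDS/AML (14.7%) and 456 of 933 in Control (48.9%). The same cells held 18.4%, 29.9%, 1.22% and 4.21% of the UMIs of all 5 copies. In Abcg2-MDS/AML most Serpina1e UMIs lay at higher type IX collagen, with 47.6% at 2 to 15 u and 37.7% at 15 u or more. In Control these shares were 31.7% and 19.4%. A group with at least 100 u of Prg4 and at least 50 u of Clu and Cilp together that were not hyaline chondrocytes, called Prg4/Clu cells here, was set after the values had been seen. It held 160 of 310 Serpina1e UMIs in NHD13Tg, 56 of 123 in WT_A1, 132 of 939 in Abcg2-MDS/AML and 656 of 933 in Control. It numbered 221 cells in NHD13Tg, 175 in WT_A1, 802 in Abcg2-MDS/AML and 1225 in Control. The group could include cells of 2 to 15 u of type IX collagen, and its levels under 2 u alone were not measured. Among all cells, those of 2 to 15 u held 40.0%, 37.5%, 26.4% and 10.6% of the Serpina1 UMIs in these libraries.

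In Prg4/Clu cells Serpina1e gave 76.6% of the Serpina1 UMIs in NHD13Tg, 74.7% in WT_A1, 20.9% in Abcg2-MDS/AML and 39.1% in Control. In free RNA of the same libraries its share was 1.65%, 3.59%, 0.919% and 2.80%. Serpina1b had 16.3%, 21.3%, 35.5% and 48.7%, while Serpina1a had 4.31%, 2.67%, 17.3% and 7.50%. Serpina1b was thus the leading copy in Abcg2-MDS/AML and Control. In Abcg2-MDS/AML Serpina1d also stood above Serpina1e, by the levels given below. In Control, of the 64 such cells with at least 5 Serpina1 UMIs, 32 were led by Serpina1e, 31 by Serpina1b and 0 by Serpina1a, and 37 held a single copy. In NHD13Tg 15 of 19 and in WT_A1 5 of 6 were led by Serpina1e. In Abcg2-MDS/AML 8 of 22 were, and 8 were led by Serpina1b.

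**Figure D4:**
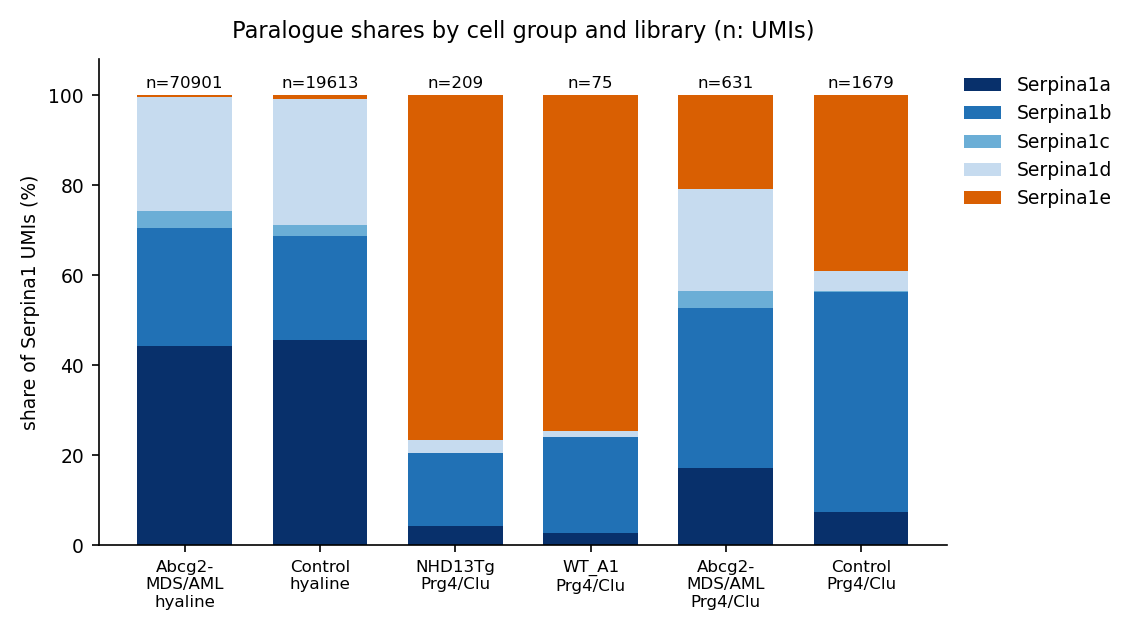
Share of each copy in the Serpina1 UMIs of hyaline chondrocytes (2 left bars) and of Prg4/Clu cells (4 right bars), by library, with the number of UMIs above each bar. Serpina1e takes under 1% in hyaline chondrocytes of both libraries and between 20.9% and 76.6% in Prg4/Clu cells.

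The Serpina1e level in Prg4/Clu cells was 120 CPM in NHD13Tg and 44.4 CPM in WT_A1, 2.71-fold (1.99 to 3.74) apart. It was 35.1 CPM in Abcg2-MDS/AML and 95.1 CPM in Control, a ratio of 0.369 (0.304 to 0.446). In hyaline chondrocytes of these libraries Serpina1e stood at 38.3 and 21.5 CPM, so only in Control was it clearly higher in Prg4/Clu cells. Few Prg4/Clu cells carried Serpina1e UMIs. A Serpina1e UMI was found in 14.5% and 5.14% of Prg4/Clu cells in NHD13Tg and WT_A1, and in 3.49% and 9.71% in Abcg2-MDS/AML and Control. The cell with most Serpina1e UMIs held 15.6%, 28.6%, 18.9% and 7.77% of them in NHD13Tg, WT_A1, Abcg2-MDS/AML and Control. Without that cell of each library the ratios were 3.19 in the NHD13 pair and 0.325 in the Abcg2 pair. Over the genes considered in these cells the median log2 ratios were -0.08 and -0.17.

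Serpina1b followed the same order in Prg4/Clu cells, with 25.5 CPM in NHD13Tg and 12.7 CPM in WT_A1, and 59.6 CPM in Abcg2-MDS/AML and 118 CPM in Control. Serpina1d ran the other way in the Abcg2 pair, with 38.1 CPM in Abcg2-MDS/AML and 10.7 CPM in Control (3.55-fold, 2.66 to 4.76). Serpina1a stood at 29.0 and 18.3 CPM there (1.59-fold, 1.22 to 2.07). In the NHD13 pair only Serpina1e and Serpina1b reached the CPM limit of the rule of size. The other copies could not be called. Serpina1a stood at 6.76 and 1.58 CPM in NHD13Tg and WT_A1, Serpina1d at 4.51 and 0.792 CPM, and Serpina1c had 0 UMIs in both. Of the 2 copies considered, 2 were higher in NHD13Tg, against 1.22% of 5152 genes, and 0 were lower, against 2.17% of genes. Serpina1b was 2.01-fold (1.08 to 3.91) higher, but 1.97-fold (0.952 to 4.29) without the cell with most Serpina1b UMIs of each library. In the Abcg2 pair Serpina1d was the copy called higher, against 4.66% of 5001 genes, and Serpina1e the copy called lower, against 11.4% of genes. Serpina1b had a ratio of 0.503 there, just short of the rule.

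**Figure D5:**
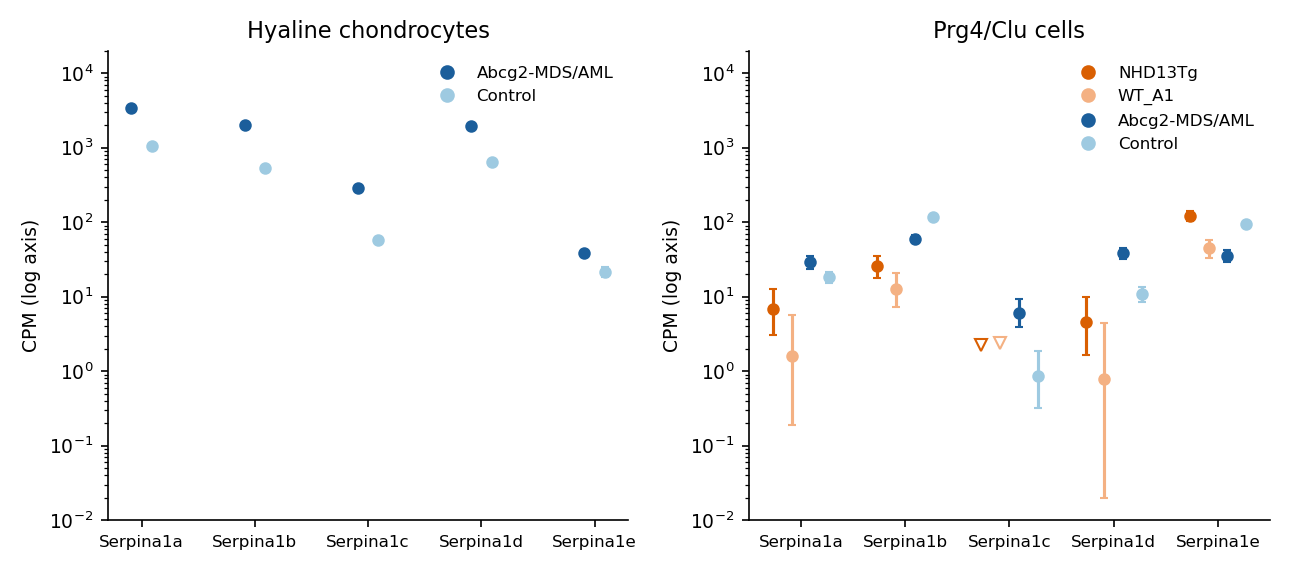
Level of each copy (CPM, log axis) in hyaline chondrocytes of Abcg2-MDS/AML and Control (left) and in Prg4/Clu cells of all 4 libraries (right). Bars are exact 95% counting intervals and triangles mark the limit that 0 UMIs allow. Serpina1e is the lowest copy in hyaline chondrocytes and the highest in Prg4/Clu cells of NHD13Tg and WT_A1.

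Other genes of the antitrypsin system were read in the hyaline chondrocytes of Abcg2-MDS/AML and Control from lists of known members. A gene counted as higher or lower at 1.5-fold with an interval leaving out 1, which 7.83% and 32% of the 5021 genes did. The best known targets were almost absent from these chondrocytes. The sort left out cells with CD45, so these values do not cover the blood cells of the tissue. Of 12 proteases and related targets, among them Elane, neutrophil elastase, Prtn3, proteinase 3, and Ctsg, cathepsin G, 0 reached 5 CPM, and Elane and Ctsg had 0 UMIs in both libraries. Of 30 other serpins present in the matrices, 9 reached 5 CPM and 7 reached 20 CPM, of which 3 were higher and 3 lower. Serpinh1, the collagen chaperone HSP47, stood at 279 and 1240 CPM and was 4.44-fold lower. Serpine2, protease nexin 1, stood at 175 and 377 CPM and Serpinb6a, an intracellular inhibitor, at 182 and 157 CPM.

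The other protease inhibitors of cartilage had 4 of 9 members higher and 3 lower. Cst3, the cysteine protease inhibitor cystatin C, stood at 31252 and 20954 CPM (1.49-fold), Timp3, an inhibitor of matrix proteases, at 1146 and 585 CPM (1.96-fold), Timp2 at 514 and 298 CPM (1.72-fold) and Timp1 at 487 and 498 CPM. Genes of folding and export of antitrypsin had 0 of 14 higher and 12 lower, with a median log2 ratio of -0.85 against -0.30 for all genes. Scaled by the median ratio of genes, 1 was higher and 8 lower, against 12.6% and 21.4% of all genes considered. The chaperones Hspa5 (BiP), Calr (calreticulin) and Canx (calnexin) stood at 630 and 976 CPM, 168 and 372 CPM, and 127 and 199 CPM in Abcg2-MDS/AML and Control. Calu, the calcium-binding protein calumenin, stood at 104 and 194 CPM.

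Among receptors that take up serpin complexes or lipoproteins, Lrp1, a receptor for complexes of serpins with proteases, stood at 174 and 245 CPM in Abcg2-MDS/AML and Control, Scarb1 at 21.3 and 44.1 CPM and Lrp8 at 4.65 and 15.8 CPM. Of known regulators of hepatic Serpina1, 2 of 7 were higher and 0 lower. Socs3, a feedback inhibitor of cytokine signalling, stood at 725 and 717 CPM, Cebpb, a C/EBP factor of the acute phase, at 610 and 402 CPM (1.52-fold), Stat3 at 145 and 182 CPM, and Osmr, the oncostatin M receptor, at 181 and 140 CPM. Among hepatic factors of the list, named after their values were seen, Foxa3 stood at 63.9 and 68.6 CPM and Foxa2 at 11.4 and 8.54 CPM, while Hnf4a and Onecut1 had 0 UMIs in both libraries. Il6ra, the interleukin-6 receptor and the other member called higher, named after its value was seen, stood at 155 and 18.1 CPM (8.54-fold). Of 12 genes of liver secretion, 2 reached 5 CPM. Fgg, the fibrinogen gamma chain, stood at 37.2 and 4.39 CPM and Trf, transferrin, at 6.38 and 5.57 CPM, while Alb stood at 0.108 CPM and was listed at 0 in Control.

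Over 22 profiles of cell types with at least 50 cells in a library, genes were ranked by how closely their log2(CPM + 1) ran with that of the summed Serpina1 level. Of 5627 genes with at least 50 CPM in a profile, Calml3, a calmodulin-like gene, had the highest Pearson correlation at 0.917. Ncmap followed at 0.897 and Ucma at 0.891, then Col9a2, Gjc3, a connexin, 3110079O15Rik, Il17b, a cytokine of the interleukin-17 family, Col9a1 and Matn3, and Scin, an actin-severing protein, at 0.865. Calml3, Col9a2, Gjc3 and Il17b stayed among the first 10 both with log2(CPM + 10) and over the 5 rule types alone, while Ucma ranked 20 and 14 and Matn3 17 and 16. These profiles share libraries and cells, and Col9a1 and Col9a2 also set the hyaline chondrocyte rule, so the coefficients only describe the order. Calml3 stood at 358 CPM in the hyaline chondrocytes of Abcg2-MDS/AML and 199 CPM in those of Control.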

How the data were processed

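Single-cell RNA-seq was made with the 10x Chromium 3′ v3.1 kit on a NextSeq 500, per the labels' protocols. The authors deposited raw UMI counts for all barcodes. The submitters' processing notes name Cell Ranger 3.1.0 and Seurat 3.2.3. The sources used here do not give the genome build, the annotation or how reads matching several copies were counted. Libraries held 36133716 to 46033790 UMIs.

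Barcodes with at least 2000 UMIs, 500 genes and at most 10% mitochondrial UMIs were kept, and doublets were not called. Rules per 10000 UMIs were MSC 10, osteoblast 100, hyaline chondrocyte 15, Msmp-high 50, fibroblast 8, tendon 8, mural 15 and blood 10. Counts were summed by type and library, with exact Poisson, Clopper-Pearson or conditional binomial 95% intervals and a floor of 3 counts. Types under 50 cells were not compared. Gene calls needed 20 CPM in 1 library. Free RNA was barcodes of 1 to 100 UMIs. There was 1 library per group, so no test was run. The interval code was tested on simulated data.

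The members and lists were chosen with earlier results of these data known. Named genes were the 5 copies, the 10 most like them, up to 4 genes per list by mean level in hyaline chondrocytes, and the 5 state genes with the widest gaps in positive share. A few genes that this rule takes, and the search of promoters for motifs, are not reported here. Alternatives covered the cell filters, the type rule and its threshold, scaling, thinning, free RNA removal, averaging over cells and leaving out the top cell. Python 3.11.15, numpy 2.4.6, scipy 1.17.1, pandas 2.3.3 and matplotlib 3.10.9 were used.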

Additional observations from a re-analysis of the deposited data

Results flagged for a closer look

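In several cell types the ratio of a diseased to a wild-type library ran one way for NHD13Tg over WT_A1 and the other way for Abcg2-MDS/AML over Control. With 1 library per group the difference between the ratios was not tested. The types are not separate, because a cell can count in both the Prg4/Clu and the tendon group. The overlap of these groups was not counted, so their ratios are not independent observations. In Prg4/Clu cells the ratios were 2.64 and 0.69 for the sum of the 5 copies, 2.01 and 0.503 for Serpina1b, and 2.71 and 0.369 for Serpina1e, in the NHD13 and Abcg2 pairs in that order.

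In MSCs the sum had ratios of 6.90 and 0.507. The first rests on 2 UMIs in WT_A1, below the floor, and the second was 1.27 without the top cell of each library. In tendon cells Serpina1b had ratios of 0.436 and 1.48. Without the cell with most Serpina1b UMIs of each library, 2 UMIs in NHD13Tg and 1 in WT_A1 remained, a ratio of 2.51 (0.130 to 148), so the lower value in NHD13Tg rests on 1 cell of each library, and the ratio of the Abcg2 pair was 1.45. Serpina1e had ratios of 5.10 and 0.204 in tendon cells. Without the cell with most Serpina1e UMIs of each library the Serpina1e ratios in tendon cells were 46.6, from 4 UMIs in WT_A1, and 0.126.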

How the results depend on the processing

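The ratio of the summed Serpina1 level in hyaline chondrocytes, 3.30 for Abcg2-MDS/AML over Control, lay between 2.56 and 3.88 under the 11 alternatives on filters, rule, scaling, depth and top cell, and stayed above 2 in each. It was 3.22 in cells that met only this rule, 2.56 with the threshold doubled, 3.88 with it halved, 3.84 scaled by the median ratio of genes and 3.35 without the top cell. Under alternatives chosen after seeing the data it was 3.51 without the top 10 cells, 2.74 under 10 u of Prg4, and 11.3, 25.8, 7.67, 5.79, 2.54 and 2.02 in the type IX collagen bands from 2, 5, 10, 15, 30 and 60 u. Serpina1e reversed to 0.679 in the band from 30 u. The cause was not tested. The counts of genes past 2-fold, 181 higher and 752 lower, were 103 and 358 at 50 CPM and 340 and 1692 at 5 CPM, where other numbers of genes were considered, and 270 and 491 after scaling. Serpina1e, at 1.78 in all hyaline chondrocytes, passed 2-fold in 2 of the first 11 alternatives. These were scaling, at 2.08, and the threshold halved, at 2.18. The Serpina1e ratio was lowest, at 1.40, with each cell thinned to 2000 UMIs, and was 1.47 with the threshold doubled. The Control level was 2383 CPM in cells that met only the hyaline rule. Of the 10 genes most like Serpina1, 5 stayed under log2(CPM + 10) and 5 over the 5 rule types alone. Alternatives gave no value for hyaline chondrocytes of NHD13Tg and WT_A1 or for Msmp-high cells of either pair, which had under 50 cells in a library. No paired analysis was possible because each group has 1 library. Depth limits the low types, where a few UMIs or 1 cell set the level.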
